A study of Mus musculus with 6 samples.

Results

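The genes described here are families through which Notch signaling is usually read out: the 6 hairy and enhancer of split genes Hes1, Hes2, Hes3, Hes5, Hes6 and Hes7, the 3 related genes Hey1, Hey2 and Heyl, and Nrarp. They were taken by symbol from the table of expression values, and all 10 were found among 21225 genes. Gene expression had been profiled on Affymetrix arrays in whole lungs of C57BL/6 embryos at E18.5, with 3 RbpjkCNULL and 3 control lungs and 1 lung per array. RbpjkCNULL embryos carried Shhcre/+ and RbpjkFlox/Flox, so that Rbpj is deleted only in cells that have expressed Shh, which in the lung are the epithelium. The control lungs are given as Shh cre/+ in one label and as wildtype in others, and are called controls here. The lungs were taken below the trachea.

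Binding of a ligand to a Notch receptor releases the intracellular part of the receptor, which enters the nucleus and joins Rbpj on DNA to switch on target genes. Hes1, Hes5, Hes7, the Hey genes and Nrarp are known as such targets, while Hes2, Hes3 and Hes6 are less firmly tied to Notch. Hes and Hey genes encode basic helix-loop-helix (bHLH) proteins that mostly repress transcription, and Nrarp encodes a small ankyrin-repeat protein that dampens the pathway. In the airway epithelium Hes1 is the target usually linked to the choice between secretory cells, such as Clara cells (CCs), and ciliated or neuroendocrine cells. Hey1, Hey2 and Heyl are best known from blood vessels, in endothelium, smooth muscle and pericytes, which express little or no Shh. The comparison therefore holds both a target best known from the epithelium, where Rbpj was to be removed, and targets best known from cells where it was not. None of them was shown here to be limited to those cells. In whole lung a change in the epithelium is mixed with the RNA of all other cells. Values are of whole lung, in which fewer cells of a type and less RNA per cell cannot be told apart, and no value assigns a transcript to a cell.

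The promoters are shown for the letters that Rbpj and bHLH repressors are known to bind. RefSeq promoters (250 bases before to 50 after a start site, build GRCm38.p6) were given for 5 of the 10 genes: Hes5, Hes6, Hes7, Hey2 and Nrarp. They were searched on both strands for the letters GTGGGAA, the extended form of the TGGGAA core bound by Rbpj. Of 32851 mouse promoters of this length, 6.38% held GTGGGAA at least once and 0.256% held it 2 or more times. Hes5 and Hey2 held it 2 times each and Hes7 1 time, while the Nrarp promoter and both Hes6 promoters held neither GTGGGAA nor TGGGAA. In the first 3 sequences below the capitals mark GTGGGAA, which reads TTCCCAC where it lies on the other strand. In that of Nrarp they mark CACGTG, an E-box of the kind bHLH repressors bind, which 7.15% of all promoters held.
Hes5 promoter, chr4:154960673-154960972, plus strand: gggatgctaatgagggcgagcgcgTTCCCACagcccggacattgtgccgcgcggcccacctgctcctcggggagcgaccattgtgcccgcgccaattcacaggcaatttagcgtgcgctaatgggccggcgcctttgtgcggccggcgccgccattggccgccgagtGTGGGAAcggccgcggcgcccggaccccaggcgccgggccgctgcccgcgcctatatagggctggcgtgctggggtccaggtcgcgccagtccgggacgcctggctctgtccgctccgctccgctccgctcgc
Hey2 promoter, chr10:30842734-30843033, minus strand: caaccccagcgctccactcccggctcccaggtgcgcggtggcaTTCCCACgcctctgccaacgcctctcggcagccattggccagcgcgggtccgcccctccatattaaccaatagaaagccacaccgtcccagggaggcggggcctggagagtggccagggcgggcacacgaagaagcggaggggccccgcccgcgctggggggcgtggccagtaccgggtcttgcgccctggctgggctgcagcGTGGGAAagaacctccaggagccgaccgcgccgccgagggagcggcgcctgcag
Hes7 promoter, chr11:69120203-69120502, plus strand: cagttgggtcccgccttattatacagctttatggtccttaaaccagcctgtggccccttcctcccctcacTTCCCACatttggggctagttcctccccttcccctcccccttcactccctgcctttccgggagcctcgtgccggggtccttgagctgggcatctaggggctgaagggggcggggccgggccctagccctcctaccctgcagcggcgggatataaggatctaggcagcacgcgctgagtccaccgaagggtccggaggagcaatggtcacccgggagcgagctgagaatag
Nrarp promoter, chr2:25180508-25180807, plus strand: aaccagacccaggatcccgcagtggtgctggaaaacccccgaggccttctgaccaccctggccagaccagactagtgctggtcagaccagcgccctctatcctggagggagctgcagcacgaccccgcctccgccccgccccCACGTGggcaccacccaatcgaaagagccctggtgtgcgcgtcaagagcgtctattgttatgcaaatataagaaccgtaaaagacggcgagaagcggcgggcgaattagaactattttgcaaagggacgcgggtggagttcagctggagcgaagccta

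In Hes5 the matches began 226 and 83 bases before the start site, and in Hey2 they began 207 and 4 bases before it. The single match of Hes7 began 180 bases before the start, and the CACGTG of Nrarp 108 bases before. CACGNG, the class C site known for Hes proteins, stood 2 times in Hes7 and 1 time each in Nrarp, where it overlaps CACGTG, and in 1 of the Hes6 promoters. Of all promoters 27.5% held it and 7.2% held it 2 or more times. CACNAG, the N-box, stood 2 times in Nrarp, 2 times in the other Hes6 promoter and 1 time in Hes7, where it overlaps a class C site, and 42.5% of all promoters held it. Hes5 and Hey2 held neither. A match is a description of the letters and not a measured binding site. Hes1, Hes2, Hes3, Hey1 and Heyl are not among the promoters given.

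None of the 10 genes passed the test in RbpjkCNULL lungs. The groups were compared gene by gene in limma, whose linear models borrow information on the spread from all genes, and p values were adjusted over all 21225 of them by the Benjamini-Hochberg method. A gene is said to be called at an adjusted p under 0.05. Over all genes 1.27% were called, and 0 of the 10 genes. At an unadjusted p under 0.05 there were again 0 of 10, where all genes gave 8.53%. A gene-by-gene test without that borrowing, the one named in the methods, also gave 0 of 10, adjusted or not. For none of the 10 did the 3 RbpjkCNULL lungs lie wholly apart from the 3 control lungs, while 14.2% of all genes showed no overlap. The differences (RbpjkCNULL minus control, log2) ran from -0.19 for Hes5 to 0.07 for Hey1, with a median of -0.08. Of the 10 differences 7 were negative, but so were 68.1% of those of all genes, whose median was -0.05.

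Several facts of the arrays bear on values this small. The correlations between arrays, taken across genes, were 0.988 to 0.997, and the medians of the arrays lay between 6.43 and 6.50. Their lower quartiles formed 2 sets that cut across genotype: RbpjkCNULL replicate 1 and control replicates 1 and 3 had 5.03 to 5.11, and the other arrays 4.87 to 4.89. RbpjkCNULL replicate 1 gave the lowest of all values for 6 of the 10 genes. Xist was low, and Y-linked transcripts were high, in all RbpjkCNULL lungs and in control replicate 3 alone, so the sex of the embryos also differs between the groups. Rbpj itself had log2 values of 6.26, 6.17 and 6.18 in RbpjkCNULL lungs, against 6.45, 6.50 and 6.74 in control lungs. Its difference of -0.36 (standard error 0.09) did not pass limma's test over all genes (adjusted p = 0.21). The markers used to check for lung epithelium, Nkx2-1, Sftpc and Epcam, had mean log2 values of 9.85 to 9.95 in RbpjkCNULL and 9.86 to 10.01 in control lungs.

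**Figure D1:**
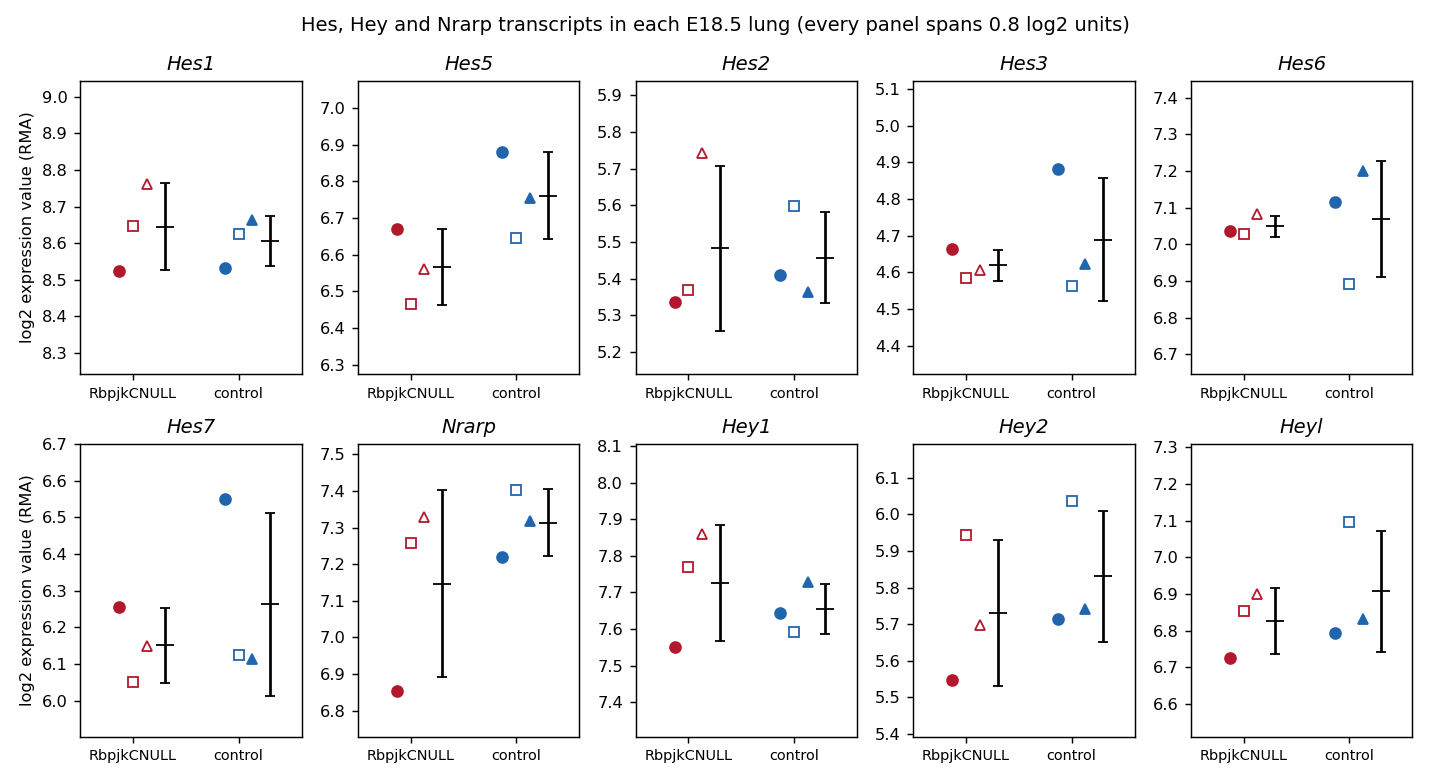
Log2 expression value of each of the 10 genes in each lung, RbpjkCNULL in red and control in blue. Circles, squares and triangles are replicates 1, 2 and 3, filled symbols are the 3 arrays with the higher lower quartile, and bars are the mean and SD of 3 lungs. The groups overlap in every panel, and RbpjkCNULL replicate 1 is the lowest point in 6 of 10.

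Hes1, the bHLH repressor linked to the secretory fate in airways (chromosome 16, 30065357 to 30067796, GRCm38.p6), hardly differed between the groups. It had log2 values of 8.52, 8.65 and 8.76 in RbpjkCNULL lungs, against 8.53, 8.62 and 8.66 in control lungs. The control values thus lay within the range of the RbpjkCNULL values. The means were 8.64 ± 0.12 in RbpjkCNULL and 8.61 ± 0.07 in control lungs (SD, n = 3 each), a difference of 0.04 (standard error 0.08, limma adjusted p = 0.92). The 95% interval of that difference, from -0.16 to 0.23 on the log2 scale, bounds in this fit a lower level in RbpjkCNULL lungs at 1.12-fold and a higher one at 1.18-fold. In the same lungs all 4 CC markers fell (Scgb1a1, Scgb3a2, Cyp2f2 and Scgb3a1, median log2 difference -3.01) and 8 of 9 ciliated cell markers rose (median 0.97). Of 10 markers of the epithelium as a whole 0 were called by limma and 2 had an unadjusted p under 0.05, with a median of 0.06. Their mean log2 value ran from 8.85 to 8.96 over RbpjkCNULL lungs and from 8.84 to 8.87 over control lungs.

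Hes5, a well-known Notch target in neural progenitors of the mouse, had the lowest difference of the 10. Its log2 values were 6.67, 6.47 and 6.56 in RbpjkCNULL lungs and 6.88, 6.64 and 6.76 in control lungs. Of the RbpjkCNULL lungs 2 lay below every control lung, and replicate 1 lay between control replicates 2 and 3. The mean was 6.57 ± 0.10 in RbpjkCNULL and 6.76 ± 0.12 in control lungs (SD, n = 3 each), and the difference of -0.19 (standard error 0.09) did not pass limma's test (unadjusted p = 0.066, adjusted p = 0.63). It was at the percentile 11.4 of the differences of all genes. The 3 arrays with the higher lower quartile also had the higher Hes5 values, all above those of the other 3 arrays. In either direction, the sets lay apart in this way for 28.5% of all genes and for 3 of the 10. The other members were Hes3, in the same direction, and Heyl, in the opposite one. Within the arrays of higher quartile the difference was -0.15, and within those of lower quartile it was -0.13, and with the sets as a block limma gave -0.14 (unadjusted p = 0.097, adjusted p = 0.55). With the lower quartile itself as a covariate the value was -0.10 (unadjusted p = 0.25). Other limma settings moved the p value both ways, and none called the gene. With array weights the value was -0.22 (unadjusted p = 0.025, adjusted p = 0.27). With the replicate number as a block it was -0.19 (unadjusted p = 0.021, adjusted p = 0.29), though these numbers paired the lungs only in part. Without RbpjkCNULL replicate 1 it was -0.25 (unadjusted p = 0.039), and without control replicate 2 also -0.25 (unadjusted p = 0.034). Leaving out any other single array raised the unadjusted p, from 0.12 without control replicate 3 to 0.21 without RbpjkCNULL replicate 2. The Xist level as a covariate gave -0.19 (unadjusted p = 0.25), and cyclic loess scaling gave -0.15 (unadjusted p = 0.10). Among genes above the median level the unadjusted p was 0.046. How far the lower quartile of the arrays accounts for the difference was not tested beyond these values.

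Nrarp, the feedback inhibitor of Notch signaling, came next with log2 values of 6.85, 7.26 and 7.33 in RbpjkCNULL lungs, against 7.22, 7.40 and 7.32 in control lungs. Only RbpjkCNULL replicate 1 lay below every control lung, and replicate 3 was above 2 of the controls. The means were 7.15 ± 0.26 in RbpjkCNULL and 7.31 ± 0.09 in control lungs (SD, n = 3 each), with a difference of -0.17 (standard error 0.13, limma adjusted p = 0.76). Without RbpjkCNULL replicate 1 the difference was -0.02 (adjusted p = 0.94), so 1 lung held nearly all of it. With the lower quartile as a covariate it was instead -0.32 (unadjusted p = 0.018, adjusted p = 0.28). In the fit without a covariate the 95% interval reached a 1.39-fold lower level in RbpjkCNULL lungs.

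The remaining Hes genes are best known outside the lung. Hes2 is little studied, Hes3 acts in neural stem cells, Hes7 is an oscillator of the segmentation clock in mouse embryos, and Hes6 differs from its relatives in that it counteracts Hes1 rather than acting as its partner. Hes6 had log2 values of 7.04, 7.03 and 7.08 in RbpjkCNULL lungs and 7.12, 6.89 and 7.20 in control lungs. All RbpjkCNULL values fell between the lowest and the highest control, and the difference was -0.02 (standard error 0.09, limma adjusted p = 0.96). Hes7 had 6.25, 6.05 and 6.15 in RbpjkCNULL lungs and 6.55, 6.12 and 6.11 in control lungs. Its difference of -0.11 (standard error 0.13, adjusted p = 0.83) rested on the high value of control replicate 1, and without that lung it was 0.03. Hes2 had 5.34, 5.37 and 5.74 in RbpjkCNULL and 5.41, 5.60 and 5.36 in control lungs, a difference of 0.03 (0.13, adjusted p = 0.97). Here each group had 1 high lung, RbpjkCNULL replicate 3 and control replicate 2. Hes3 had 4.66, 4.59 and 4.61 in RbpjkCNULL and 4.88, 4.56 and 4.62 in control lungs, a difference of -0.07 (0.10, adjusted p = 0.85). Its mean lay below the 25th percentile of all gene means, the only one of the 10 to do so, and 6 of the 10 lay above the median.

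The vascular targets gave small differences of both signs. Hey1, which acts in endothelium and heart, had log2 values of 7.55, 7.77 and 7.86 in RbpjkCNULL lungs and 7.64, 7.59 and 7.73 in control lungs. RbpjkCNULL replicates 2 and 3 were above every control and replicate 1 was below every control, and the difference was 0.07 (standard error 0.10, limma adjusted p = 0.85). It was 0.16 without RbpjkCNULL replicate 1 (adjusted p = 0.52) and 0.0054 without replicate 3. Hey2, which takes part in arterial fate and heart development in mice, had 5.55, 5.94 and 5.70 in RbpjkCNULL lungs and 5.71, 6.04 and 5.74 in control lungs. In both groups replicate 2 was the highest, and the difference was -0.10 (0.13, adjusted p = 0.85). Heyl, a target known from vascular smooth muscle, had 6.72, 6.85 and 6.90 in RbpjkCNULL lungs and 6.79, 7.10 and 6.83 in control lungs, a difference of -0.08 (0.10, adjusted p = 0.84). Without control replicate 2, the highest of the controls, that difference was 0.01. That lung was also the only control among the arrays of lower quartile, which all lay above the other arrays for Heyl. A high lung and a shift of its array set thus cannot be told apart here. For Hey2 the value without the same control lung was 0.0018. In this fit the 95% intervals bound a lower level in RbpjkCNULL lungs at 1.11-fold for Hey1, 1.32-fold for Hey2 and 1.24-fold for Heyl.

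Markers of the cells in which Hey genes are known were read beside them. Of 14 endothelial markers 0 were called by limma, and 0 at an unadjusted p under 0.05, with a median log2 difference of 0.03. Their mean log2 value ran from 9.11 to 9.20 over RbpjkCNULL lungs and from 9.11 to 9.21 over control lungs. Of 7 arterial markers 0 were called, and 0 at an unadjusted p under 0.05. Their mean log2 value ran from 7.61 to 7.66 over RbpjkCNULL lungs and from 7.57 to 7.68 over control lungs. Of 10 smooth muscle and pericyte markers 0 were called and 1 had an unadjusted p under 0.05, namely Cnn1, a calponin of smooth muscle (-0.42, adjusted p = 0.19). The median of the 10 was -0.16, and 9 were negative, as were 68.1% of all genes. The mean log2 value of these markers was 7.63, 8.01 and 7.95 in RbpjkCNULL lungs, against 8.03, 8.11 and 8.02 in control lungs. Every RbpjkCNULL lung was thus lower, replicate 1 by most, while replicate 2 was nearly level with control replicate 3. RbpjkCNULL replicate 1 was also the lowest lung for Hey1, Hey2 and Heyl, but equally for Hes1, Hes2 and Nrarp. The part of smooth muscle content in these values was not tested.

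**Figure D2:**
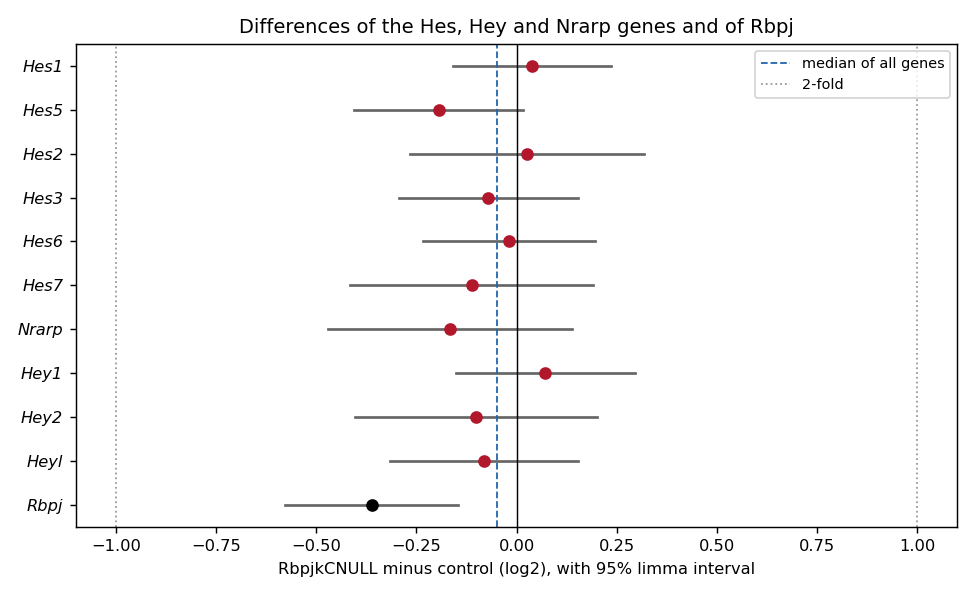
Difference of each gene (RbpjkCNULL minus control, log2) with its 95% interval from limma, Rbpj in black. The intervals of all 10 genes include 0 and end well inside the dotted lines at 2-fold, while that of Rbpj lies below 0. The dashed line is the median of all genes, -0.05.

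In the fit without covariates, the 95% intervals bound a lower level in RbpjkCNULL lungs at 1.11-fold (Hey1) to 1.39-fold (Nrarp), and a higher level at 1.01-fold (Hes5) to 1.25-fold (Hes2). They are for single genes of whole lung, without adjustment for the number of genes, the sex of the embryos or the lower quartile of the arrays, and intervals of the fits with those covariates were not computed. The spread between lungs within a group was ordinary for these arrays: the residual SD of the 10 genes lay between the percentiles 38.1 (Hes1) and 81.2 (Nrarp) of all genes. Under other settings of the analysis, Hes5 and Nrarp kept a negative sign in each that was run. Each of the other 8 genes changed sign in at least 1, always without a call. Settings that alter only the test or the genes tested leave each difference unchanged, as does blocking by replicate number. There no sign could change. No setting called any of the 10, and between 0 and 3 of them had an unadjusted p under 0.05. Among the scalings, Hes3 and Hes6 were the ones to change sign.

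Within the 2 sets of arrays that differ in their lower quartile, 4 of the 10 genes had every RbpjkCNULL lung below every control lung of the same set: Hes5, Hey2, Heyl and Nrarp. The same held for 21.4% of all genes. For Hey2 the differences within the sets were -0.18 and -0.22, for Heyl -0.09 and -0.22, and for Nrarp -0.41 and -0.11, the set of RbpjkCNULL replicate 1 first. Hes1 and Hey1 went opposite ways in the sets, with -0.07 and 0.08 for Hes1 and -0.13 and 0.22 for Hey1. With the lower quartile of the array as a covariate, limma gave -0.27 for Hey2 (unadjusted p = 0.021, adjusted p = 0.29) and -0.21 for Heyl (unadjusted p = 0.023, adjusted p = 0.31). Without the covariate the values were -0.10 for Hey2 and -0.08 for Heyl. With the sets as a block the values were -0.20 for Hey2 (adjusted p = 0.42), -0.15 for Heyl (adjusted p = 0.46) and -0.26 for Nrarp (unadjusted p = 0.020, adjusted p = 0.28). The sets hold 3 arrays each, so within them 1 lung always stands alone in its group. This reading was chosen after the values were seen.

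Hes1, taken as the epithelial target, was then set against the Hey genes, taken as the vascular ones. The log2 value of each Hey gene was subtracted from that of Hes1 in the same lung, and the groups were compared by permuting the lungs (exact test, two-sided). An exact test of 3 lungs against 3 cannot go below p = 0.1. Hes1 minus Hey1 was 0.97, 0.88 and 0.90 in RbpjkCNULL lungs and 0.89, 1.03 and 0.94 in control lungs. The ranges overlapped and the change was -0.03 (standard error 0.05, exact p = 0.6). Hes1 minus Hey2 was 2.98, 2.70 and 3.06 in RbpjkCNULL lungs and 2.82, 2.59 and 2.92 in control lungs. This gave a change of 0.14 (0.15, exact p = 0.4), with 2 RbpjkCNULL lungs above every control. Hes1 minus Heyl was 1.80, 1.80 and 1.86 in RbpjkCNULL lungs and 1.74, 1.53 and 1.83 in control lungs, a change of 0.12 (0.09, exact p = 0.3). Adjusted over these 3 pairs, each p was 0.6. With the replicate number as a block, the change against Hey2 had a limma p under 0.05 after adjustment over the 3 pairs. The replicate numbers paired the lungs only in part. The 95% intervals of the changes ran from -0.18 to 0.11 for Hey1, from -0.27 to 0.55 for Hey2 and from -0.14 to 0.37 for Heyl, so they leave room for Hes1 to differ from a Hey gene in either direction. Without control replicate 2 the changes against Hey2 and Heyl were 0.045 and 0.034.

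**Figure D3:**
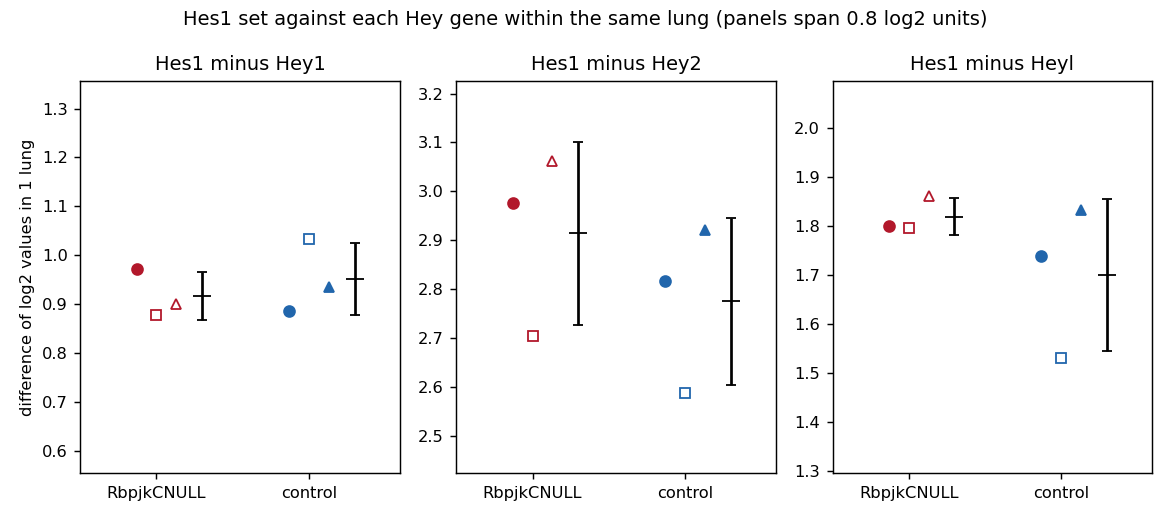
Log2 value of Hes1 minus that of Hey1, Hey2 or Heyl in the same lung, RbpjkCNULL in red and control in blue. Symbols and bars are as in the plot of the 10 genes by lung. The groups overlap in all 3 panels. Only changes between groups have meaning here, because levels of different genes cannot be set against each other on an array.

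The genes whose profile over the 6 lungs came closest to Hes1 were found by the root mean square difference of log2 values after each gene was centred on its mean. They were Psmb1, a proteasome subunit (0.014), Rest, a repressor of neuronal genes (0.014), and Parg, which degrades poly(ADP-ribose) (0.015). Closest to Hey1 were Rab5b, a GTPase of early endosomes (0.022), Snx24, a sorting nexin (0.029), and Nup62cl (0.032). None of the 6 was called (limma adjusted p from 0.80 for Snx24 to 0.96 for Psmb1). These are the nearest of all named genes over 6 lungs, and are given as a description.

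The rest of the Notch pathway gave no call either. Of 69 measured genes from 7 lists 0 were called by limma, 5 (7.25%) had an unadjusted p under 0.05, and 9 (13%) showed no overlap between the groups, shares below those of all genes. The 5 were Rbpj, Jag1, Numbl, Rfng and Bhlhe40. Among receptors and ligands the 12 differences had a median of -0.10. Jag1, a ligand of Notch, had 8.50, 8.54 and 8.57 in RbpjkCNULL lungs and 8.27, 8.33 and 8.42 in control lungs, a difference of 0.20 (standard error 0.07, adjusted p = 0.47). Every RbpjkCNULL lung was above every control lung. Notch3, the receptor of vascular smooth muscle, which also stands in the lists of other Notch targets and of smooth muscle markers, had 8.46, 8.59 and 8.73 in RbpjkCNULL lungs and 8.63, 8.87 and 8.83 in control lungs, a difference of -0.19 (0.10, adjusted p = 0.67). Like 6 of the 10 genes, Heyl and Hes1 among them, it was lowest in RbpjkCNULL replicate 1.

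Among 12 genes of signal transduction, with a median of 0.03, the differences ran from that of Rbpj to 0.12 for the acetyltransferase Kat2b. Among 20 genes of processing and modulation the median was -0.04. There Numbl, a relative of the Notch inhibitor Numb, had 6.91, 7.08 and 6.95 in RbpjkCNULL lungs and 7.16, 7.18 and 7.27 in control lungs, a difference of -0.22 (0.08, adjusted p = 0.44). The fringe glycosyltransferase Rfng had -0.21 (0.07, adjusted p = 0.46), and the ubiquitin ligase Neurl1a was highest at 0.07. The values of Numbl and Rfng in RbpjkCNULL lungs all lay below those in control lungs. Of 10 further genes known as Notch targets elsewhere 0 were called and the median was -0.03, from -0.23 for Ptcra, the pre-T-cell receptor chain, to 0.09 for the cell cycle inhibitor Cdkn1a.

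Partners and targets of the Hes proteins completed the pathway. The 6 corepressors measured had a median of -0.05, from -0.17 for Runx2 to 0.02 for the deacetylase Sirt1. The 7 bHLH genes that Hes proteins are known to repress had a median of -0.04. By limma 0 of them were called, and 0 at an unadjusted p under 0.05. The highest of the 7 was Neurog2 at 0.02. Of 9 neuroendocrine markers 0 were called by limma and 1 had an unadjusted p under 0.05. The median was -0.14, and 8 were negative, where 68.1% of all genes were. The paper cites earlier work in which these mutants had more neuroendocrine cells. The whole-lung values do not show such a change, but they are of RNA and cannot decide on cell numbers. The mean log2 value of the 9 markers was also low. It ran from 4.94 to 5.04 over RbpjkCNULL lungs and from 5.02 to 5.25 over control lungs, near the lower quartiles of the arrays. Bhlhe40, a circadian bHLH repressor with the Orange domain of the Hes proteins, had the highest difference of all 69 genes. Its log2 values were 6.92, 7.11 and 7.06 in RbpjkCNULL lungs, all above the 6.59, 6.79 and 6.81 of control lungs, but the difference of 0.30 (0.09, unadjusted p = 0.012) had an adjusted p of 0.35. Its relatives Bhlhe41 and Helt had 0.28 and -0.09.

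**Figure D4:**
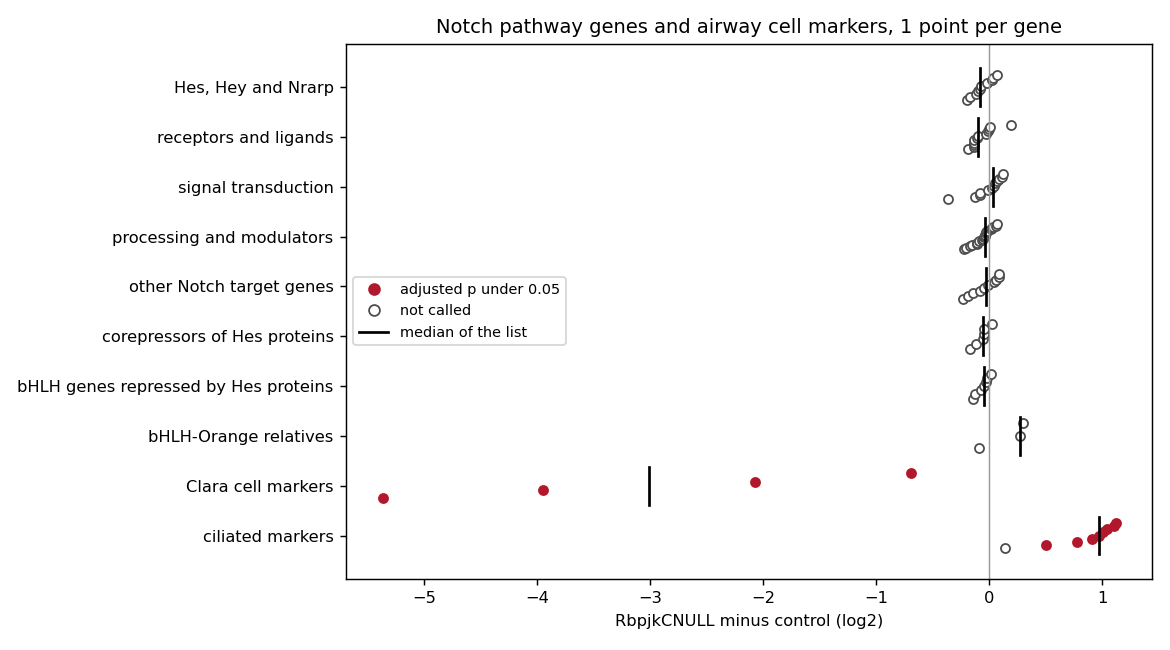
Difference of each gene (RbpjkCNULL minus control, log2) in the 10 genes, in 7 lists of Notch pathway genes and in CC and ciliated cell markers, with the median of each list as a bar. Filled red points have an adjusted p under 0.05. Among the lists plotted, called points lie only in those of CC markers (4 of 4) and ciliated markers (8 of 9).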

How the data were processed

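Total RNA of whole lungs was amplified, labelled with biotin and hybridised to Affymetrix Mouse Gene 1.0 ST arrays by the authors. The deposited values are log2 values, which the authors made with RMA, which corrects background, equalises the distributions of the arrays and summarises probes, in the affy package under R 2.12.0, 1 per Entrez Gene. They were used as deposited, without filter. Of 21225 genes, 20239 had 1 symbol. Depth does not apply, and the number of arrays limits the precision.

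The comparison of RbpjkCNULL with control used lmFit and eBayes (no trend) of limma 3.58.1 in R 4.3.3. The labels do not say whether the lungs of a group came from separate litters, and p values measure the spread between these lungs. The code was checked on simulated arrays with known changes and independent noise. Those arrays held neither the sets by lower quartile nor a sex difference, and their changes were larger than those of the 10 genes. The check thus does not measure power for differences this small. Of 73 pathway genes listed, 69 were found by symbol or Entrez Gene. The genes, the lists and the alternatives were chosen with earlier results of these data known. Named were all 10 genes, the highest and lowest gene of each pathway list, and the 3 genes closest to Hes1 and to Hey1. 1 gene that this rule names is not reported here. Rfng and Cnn1 were named after their values were seen. Alternatives comprised the test of the methods, 3 variants of limma (array weights, a trend, a robust fit), 3 further scalings, 2 filters, the replicate number as a block, covariates for Xist and for the lower quartile, and leaving out arrays. A block for the sets of arrays was added after seeing the data.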

Additional observations from a re-analysis of the deposited data

How the results depend on the processing

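None of the 10 genes and none of the 69 pathway genes was called under any alternative run. For the genes named in these lists, 420 values kept their sign, 48 changed it and 0 became calls. The test of the methods, the trend, the robust fit, the filters and the replicate block leave the difference itself unchanged. Their signs were thus kept by construction and are among the 420.

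Differences that changed sign are given as log2 values, RbpjkCNULL minus control. With the Xist level as a covariate they were -0.030 for Hes1, 0.0012 for Hes3, 0.060 for Hes7, -0.020 for Hey1, 0.0058 for Hey2, 0.012 for Heyl, -0.13 for Cdkn1a, 0.020 for Helt, -0.10 for Kat2b and -0.0075 for Sirt1. With the lower quartile as a covariate they were -0.018 for Hes1, -0.090 for Hes2, 0.014 for Hes3, 0.057 for Hes6, 0.0059 for Hes7, 0.071 for Helt and -0.074 for Sirt1. With the sets of arrays as a block, chosen after seeing the data, they were -0.047 for Hes2, 0.021 for Hes6, 0.0065 for Helt and -0.031 for Sirt1. Cyclic loess gave 0.033 for Hes3, 0.0078 for Hes6 and 0.0086 for Helt, quantile normalization 0.027 for Hes3 and 0.00051 for Helt, and array weights -0.013 for Neurog2. Without both arrays numbered 1 Hes3 had 0.0023 and Hes6 0.0097. All of these had an adjusted p of at least 0.82, and the cause was not tested.

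Leaving out 1 array at a time gave -0.021 to 0.098 for Hes1, -0.10 to 0.098 for Hes2, -0.13 to 0.025 for Hes3, -0.11 to 0.045 for Hes6, -0.19 to 0.032 for Hes7, 0.0054 to 0.16 for Hey1, -0.21 to 0.0018 for Hey2 and -0.14 to 0.013 for Heyl. It gave -0.25 to 0.015 for Helt, -0.014 to 0.13 for Neurl1a, -0.067 to 0.11 for Neurog2, -0.045 to 0.080 for Sirt1 and -0.012 to 0.18 for Cdkn1a. Hes5 ran from -0.25 to -0.13 and Nrarp from -0.26 to -0.021. Hes1 minus Hey1 ran from -0.066 to 0.0063, Hes1 minus Hey2 from 0.045 to 0.24 and Hes1 minus Heyl from 0.034 to 0.19.

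Over all genes 270 were called, 139 to 236 when 1 array was left out (139 without RbpjkCNULL replicate 2 and 148 without replicate 3), 179 without both arrays numbered 1, 413 with the sets as a block, 8 by the test of the methods (1769 unadjusted), and 0 with the Xist covariate (1418 unadjusted). At an unadjusted p under 0.05 limma gave 1810, with 5 pathway genes.

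The replicate numbers paired the lungs only in part: same-numbered lungs had correlations of 0.49, 0.31 and -0.087 in their deviations across genes. RbpjkCNULL replicates 1 and 2 correlated best with the control lung of the same number, but replicate 3 with control replicate 2. With the replicate number as a block 304 genes were called, 0 of the 10 genes among them, and the change of Hes1 minus Hey2 was 0.14 (adjusted p = 0.023 over the 3 pairs, limma).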
